A study of Homo sapiens with 2 samples.

Results

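The genes described here are 40 regulators of the cell cycle: cyclins, cyclin-dependent kinases (CDKs) with their inhibitors and activators, and the kinases and checkpoint proteins of mitosis. They were chosen by name, and each symbol matched 1 Ensembl gene identifier, so that 40 of the 57736 genes listed in each library were followed. By the phase in which they are best known to act, 11 were placed in G1, 7 in S phase and 22 in mitosis, the last group including regulators of entry into mitosis. RNA-Seq was carried out on HEK293T cells, a line derived from human embryonic kidney that carries adenovirus DNA and the SV40 large T antigen. All cells were of the labelled wild type genotype and, by the labels, were treated for 20 min at 43 °C, followed by 6 h of recovery at 37 °C. The study's text gives a longer time at 43 °C than these labels do. Poly(A)+ RNA was sequenced from 2 replicates whose cells were lysed separately, and both belong to the same heat-shock group. Untreated cells were not analysed here, so the values are levels after recovery, and no change caused by heat shock treatment was measured. In bulk RNA, a different share of cells in a phase and a different amount of RNA per cell cannot be told apart.

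The cell cycle is driven by cyclins that bind and activate CDKs in turn. D-type cyclins with CDK4 and CDK6 act in G1, E-type and A-type cyclins with CDK2 act around S phase, and B-type cyclins with CDK1 start mitosis. Inhibitors of the INK4 and CIP/KIP families hold the kinases back, WEE1 and PKMYT1 keep CDK1 phosphorylated and inactive, CDC25 phosphatases remove that phosphorylation, and the Aurora, Polo and spindle checkpoint kinases guide the separation of chromosomes. Many genes used in mitosis share promoter elements, the CCAAT box and the cell cycle genes homology region (CHR), while genes of the G1 to S transition often carry E2F elements. The large T antigen of HEK293T cells is known to bind the RB and p53 proteins, which act in the same pathways.

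The libraries held 22529828 expected counts in replicate 1 and 26890199 in replicate 2. The tables give, for each gene, TPM (a relative level corrected for transcript length, with the same total in each library) and an expected count, and TPM is the scale used below to set genes side by side. For a difference between the libraries, counts were scaled by TMM (a factor computed from the bulk of genes) and compared by an exact binomial test (two-sided) whose p-values were adjusted by Benjamini-Hochberg over 19714 genes. Such a test covers counting error only and compares 2 libraries, not conditions. The libraries stood apart by base composition: among 13619 genes with at least 100 counts, the log2 ratio of replicate 2 over replicate 1 fell with GC content (Pearson's r = -0.62, Spearman's rho = -0.69, across genes that share both libraries and are not independent). The ratios were therefore also computed with the GC trend removed. Of 9 markers listed for the mixed kidney epithelial and neuronal character of HEK293T cells, 7 reached a TPM of 1 in both libraries, with VIM and UCHL1 highest, whereas PAX8 and EPCAM were below it. VIM is not specific to kidney epithelial or neuronal cells. NEFL of this list and PECAM1 of the endothelial list did not match a single gene identifier and were left out. Of the blood and endothelial markers, 0 of 3 and 0 of 2 reached it, and of the fibroblast markers 2 of 3 did, with COL1A1 at 24.1 and 20.9 TPM.

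Promoter windows from RefSeq (GRCh38.p14, 250 bases before to 50 after the annotated start) were found for 28 of the 40 members. TTK, AURKA, PKMYT1, FOXM1, BIRC5, CDKN1C, WEE1, CCNE2, CDK2, BUB3, CCND1 and CCND2 had no entry. Both strands were searched for CCAAT, for the CHR as TTTGAA, in the spelling TTCGAA or in the spelling TTTAAA, and for the E2F spellings TTTGGCGC, TTTCCCGC, TTTGCCGC and TTTCGCGC. A CCAAT box and a CHR spelling were found together in 11 of 15 mitotic members (73.3%), 1 of 8 G1 members and 0 of 5 S members with a window, against 9.95% of all 27305 promoters. Of the 114 pathway genes described further below, 106 had a window, and 33 of these (31.1%) held both. Only these spellings were counted, so a window without a match can still hold a variant of an element. The S members CCNA2, with CTTGAA beside a CCAAT box, and MYBL2, with TTGGCGGG, hold such letters, which were not searched. The stretches below were chosen to show that arrangement in mitotic members of different roles, with CDC25A as an S member that has an E2F spelling and CDK4 as a G1 member that has none of the 3 elements. Each stretch is 5′ to 3′ in the direction of the gene and ends at the base before its start, except for CDK1, where it ends 50 bases earlier. The matches of CDK1 lie further upstream, with the CCAAT box 150 bases before the start and CHR spellings 161 and 131 bases before it. Capitals mark every match, on either strand.
CCNB1 (chr5:69167030-69167149, plus strand): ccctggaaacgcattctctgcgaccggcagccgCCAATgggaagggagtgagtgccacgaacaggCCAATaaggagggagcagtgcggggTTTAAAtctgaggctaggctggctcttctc
CCNB2 (chr15:59105026-59105145, plus strand): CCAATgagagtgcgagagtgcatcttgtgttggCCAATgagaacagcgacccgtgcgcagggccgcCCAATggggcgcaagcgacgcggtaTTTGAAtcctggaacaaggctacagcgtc
CDK1 (chr10:60778161-60778280, plus strand): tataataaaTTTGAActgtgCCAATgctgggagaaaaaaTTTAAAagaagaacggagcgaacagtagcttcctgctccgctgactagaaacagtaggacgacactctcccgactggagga
PLK1 (chr16:23678769-23678888, plus strand): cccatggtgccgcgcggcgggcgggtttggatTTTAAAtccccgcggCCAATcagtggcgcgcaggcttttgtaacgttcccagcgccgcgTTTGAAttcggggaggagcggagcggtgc
CDC20 (chr1:43358861-43358980, plus strand): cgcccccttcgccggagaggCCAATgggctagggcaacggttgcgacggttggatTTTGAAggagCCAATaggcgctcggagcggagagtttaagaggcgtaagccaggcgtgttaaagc
PTTG1 (chr5:160421735-160421854, plus strand): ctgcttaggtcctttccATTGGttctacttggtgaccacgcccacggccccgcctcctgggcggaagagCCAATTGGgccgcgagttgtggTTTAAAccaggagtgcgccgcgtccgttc
MKI67 (chr10:128126424-128126543, minus strand): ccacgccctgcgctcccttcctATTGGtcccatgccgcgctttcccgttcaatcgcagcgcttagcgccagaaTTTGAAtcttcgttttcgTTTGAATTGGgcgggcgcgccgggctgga
CDC25A (chr3:48188418-48188537, minus strand): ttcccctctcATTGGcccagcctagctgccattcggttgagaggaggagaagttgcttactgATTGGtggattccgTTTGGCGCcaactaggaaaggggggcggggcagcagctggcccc
CDK4 (chr12:57752311-57752430, minus strand): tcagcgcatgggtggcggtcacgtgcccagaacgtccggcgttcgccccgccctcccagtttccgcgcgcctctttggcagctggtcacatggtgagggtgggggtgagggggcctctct

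A CHR spelling began 29 bases before the start in CCNB2, PLK1, PTTG1 and MKI67, 30 bases before it in CCNB1 and 23 bases before it in BUB1B. TTTAAA also stood there in members of other phases, 30 bases before the start in CDKN1B and 28 in CCNE1. CCNB2 held 4 CCAAT boxes in its window, and so did CCNF and TOP2A. In MKI67 and PTTG1, matches on opposite strands shared bases. CDC25A and CDK1 were the members with an E2F spelling of those searched (2 of 28 members, 3.33% of all promoters), and in CDK1 it lay downstream of the start. Counting each element alone, a CCAAT box was found in 16 of 28 members and in 35.7% of all promoters, and a CHR spelling in 14 of 28 members and in 25.3% of all promoters. TTTAAA also resembles a TATA box, and with TTTGAA as the single spelling the CHR was found in 9 of 28 members, all 9 of them mitotic, and in 15.4% of all promoters. Among the 106 pathway genes with a window, the shares were 47.2% for a CCAAT box, 53.8% for a CHR spelling and 39.6% for TTTGAA. CDKN2A had a pair of windows, for its alternative starts, and neither held any of the 3 elements. A match describes letters in the window and does not show binding of a factor.

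After recovery, RNA of nearly the whole set was present. Taking 1 TPM in each library as detection, 39 of 40 members were detected, against 26.3% of all genes. The exception was CCNA1, the A-type cyclin known from the germ line, with 3 counts in replicate 1 and 1 in replicate 2, at or under the floor of 3 counts, so no ratio is given for it. The mean levels of the 39 ranged from 3.51 ± 0.184 TPM (SD, n = 2) for CDKN1C to 537 ± 85.6 TPM for CDKN2A. The members together made up 0.406% of all TPM in replicate 1 and 0.405% in replicate 2. Mitotic members had a median of 103 TPM in replicate 1 and 95.1 TPM in replicate 2. S members had medians of 62.5 and 68.9 TPM, and G1 members 28.5 and 37.4 TPM. The order mitotic, S, G1 was thus the same in both libraries on the TPM scale. It was not the same without a correction for length, where the median of the S members was 119 CPM (reads of a gene scaled to the total), that of the mitotic members 114 and that of the G1 members 84.6. The G1 group also mixes drivers with inhibitors. The D-type cyclins and their kinases had medians of 60.4 and 71.3 TPM, close to those of the S members. The INK4 inhibitors had medians of 16.9 and 18.2 TPM and the CIP/KIP inhibitors 10.2 and 10.9 TPM. Genes of a phase are not replicates of it, and the medians are given as a description with no test.

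**Figure D1:**
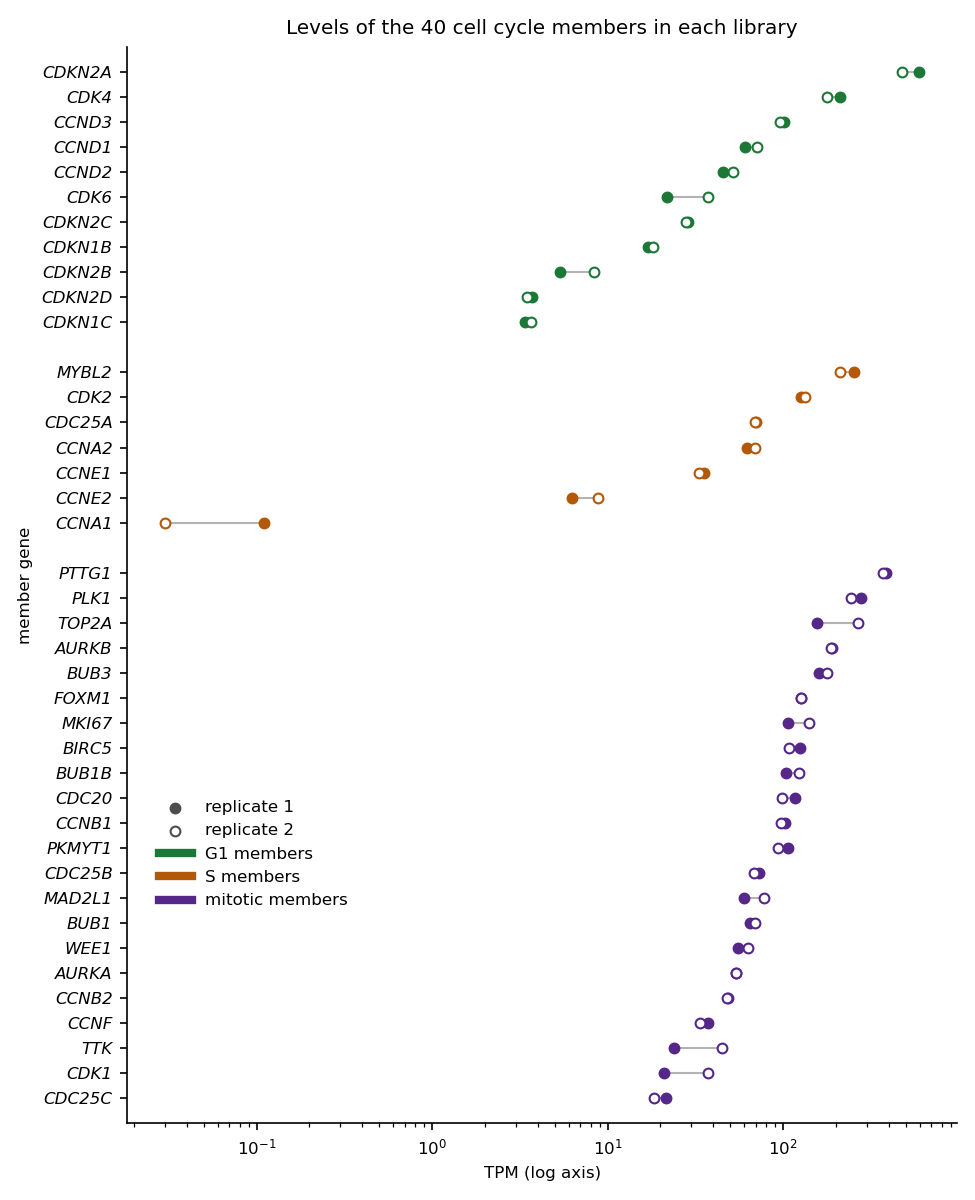
TPM of each member (log axis) in replicate 1 (filled circles) and replicate 2 (open circles), grouped by phase and ordered by mean level, with a grey line joining the libraries. CDKN2A leads at 597 and 476 TPM, CCNA1 lies below 1 TPM in both libraries, and the widest gaps among the other members are those of TTK, CDK1, CDK6 and TOP2A.

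In the order of mean TPM, 39 pairs of neighbours were compared, and in 13 pairs both libraries of the higher gene lay above both libraries of the lower one. The genes at the top, CDKN2A, then PTTG1, then PLK1, were separated in this way. From PLK1 through MYBL2, TOP2A and CDK4 to AURKB the libraries of neighbours overlapped, and so they did from CDK2 through 7 further genes down to CCND3. The order of neighbours within those runs is therefore not larger than the spread between the libraries. Genes further apart in a run can still be separated, as PLK1 (277 and 244 TPM) was from AURKB (190 and 189 TPM).

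Among the D-type cyclins, which link growth signals to the cycle, CCND3 was measured at 102 and 96.3 TPM (replicate 1 and replicate 2), CCND1 at 60.4 and 71.3 TPM, and CCND2 at 45.3 and 51.8 TPM. CCND3 was highest in both libraries and CCND2 lowest, and the 3 genes did not overlap. CCND3 took 46.5% ± 3.66 (SD, n = 2) of the D-type cyclin TPM, CCND1 30.8% ± 2.38 and CCND2 22.7% ± 1.28. This order depended on transcript length: of the reads assigned to the 3 genes, CCND2 took 55.1% in replicate 1 and 57.3% in replicate 2. Counts were also divided by the longest annotated transcript in place of the authors' abundance-weighted length, on a scale with the same total as TPM. CCND2 then stood at 75.4 and 86.5, CCND3 at 79.4 and 74.0 and CCND1 at 49.4 and 56.9. On that scale CCND3 was above CCND2 in replicate 1 and below it in replicate 2.

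Of their kinase partners, CDK4 was measured at 211 and 177 TPM and CDK6 at 21.7 and 37.4 TPM. CDK4 thus made up 90.7% of the pair in replicate 1 and 82.6% in replicate 2. CDK6 had the smallest adjusted p of the G1 members: its log2 ratio of replicate 2 over replicate 1 was 0.92 (95% exact counting interval 0.86 to 0.99; adjusted p = 1.48e-175, exact binomial test with Benjamini-Hochberg adjustment), and it remained 0.92 with the GC trend removed. CDK4 differed in the opposite direction (log2 ratio -0.33, -0.12 with the GC trend removed), past the test on both scales, but with the length trend removed as well it stood at -0.0049 and was not past it. The CDK6 transcript length that the authors' quantifier weighted by abundance was 6668 bases in replicate 1 and 7944 in replicate 2, so the mix of CDK6 transcripts was estimated differently in the 2 libraries. By reads alone, with no correction for length, CDK4 took 50.1% of the pair in replicate 1 and 29.6% in replicate 2.

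CDKN2A (ENSG00000147889, GRCh37 chr9:21967751-21995300, minus strand) was the highest member, at 597 TPM in replicate 1 and 476 TPM in replicate 2. It ranked 201 among all 57736 genes by mean TPM. The locus encodes p16, an INK4 inhibitor of CDK4 and CDK6, and in another reading frame p14ARF, which acts on the p53 pathway, and the gene-level values do not separate them. Replicate 1 was higher, with a log2 ratio of -0.42 (interval -0.47 to -0.38; adjusted p = 8.22e-66, exact binomial test), and -0.18 with the GC trend removed. The other INK4 inhibitors were far lower. CDKN2C, p18, was measured at 28.5 and 28.0 TPM, CDKN2B, p15, at 5.32 and 8.38 TPM, and CDKN2D, p19, at 3.70 and 3.45 TPM. CDKN2A therefore took 94.1% and 92.3% of INK4 TPM, and the INK4 genes together stood at 2.73 and 2.40 times the summed TPM of CDK4 and CDK6. By reads alone this ratio was 1.62 in replicate 1 and 0.940 in replicate 2, so which side was higher depended on the transcript lengths. CDKN2B was the one INK4 gene higher in replicate 2 (log2 ratio 0.62, interval 0.35 to 0.90), and its log2 ratio was 0.83 with the GC trend removed. CDKN2B lies opposite the antisense gene CDKN2B-AS1, and where counting does not use strand their reads cannot be told apart. The CIP/KIP inhibitors were low as well: CDKN1B, p27, was measured at 17.0 and 18.2 TPM and CDKN1C, p57, at 3.38 and 3.64 TPM, and neither differed past the test between the libraries. The intervals of CDKN2D (-0.76 to 0.19) and CDKN1C (-0.47 to 0.41) show how little their 155 and 181 summed counts could resolve.

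In the S group, CDK2, the kinase of E-type and A-type cyclins, was measured at 126 and 133 TPM. CCNA2, the A-type cyclin of dividing somatic cells, was measured at 62.5 and 69.3 TPM. Neither gene differed past the test under TMM, with log2 ratios of -0.03 for CDK2 (interval -0.11 to 0.04) and 0.03 for CCNA2 (interval -0.04 to 0.10). With the GC trend removed CCNA2 was higher in replicate 1 (-0.26, adjusted p = 1.32e-12, exact binomial test), and CDK2 stood at 0.09, not past the test, but at 0.14 and past it once the length trend was removed as well. Of the E-type cyclins, which act with CDK2 at the start of S phase, CCNE1 was measured at 35.5 and 33.2 TPM and CCNE2 at 6.30 and 8.82 TPM. CCNE1 was higher than CCNE2 in both libraries and took 84.9% and 79.0% of their TPM. CCNE2 was higher in replicate 2 (log2 ratio 0.63, adjusted p = 1.93e-04, exact binomial test), but its log2 ratio was 0.03 and not past the test with the GC trend removed. CCNA2 stood at 1.57 ± 0.108 times (SD, n = 2) the summed TPM of the E-type cyclins, and by reads alone at 3.10 and 3.42 times. CDC25A, the phosphatase that activates CDK2 and whose promoter stretch is shown above with its E2F spelling, was measured at 70.5 and 68.9 TPM. MYBL2, the transcription factor B-Myb, which joins the MuvB complex on CHR promoters, was the highest S member, at 252 and 210 TPM. MYBL2 was higher in replicate 1 on both scales (log2 ratio -0.38, and -0.14 with the GC trend removed).

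The B-type cyclins had a higher TPM than CDK1, the kinase they bind. CCNB1 was measured at 103 and 97.3 TPM, CCNB2 at 48.5 and 48.2 TPM, and CDK1 at 20.9 and 37.3 TPM. CCNB1 took 68.0% and 66.9% of the B-type cyclin TPM. The B-type cyclins together stood at 7.25 times CDK1 in replicate 1 and 3.90 times in replicate 2, and CDK2 stood at 6.04 and 3.57 times CDK1. Of these 4 genes, CDK1 and not its partners was higher in replicate 2, with a log2 ratio of 0.73 (interval 0.55 to 0.91; adjusted p = 1.39e-15, exact binomial test). CDK1 also had the lowest GC content of the members (35.5%), and removal of the GC trend left its log2 ratio at -0.14, not past the test. CCNF, cyclin F, an F-box protein that binds no CDK and directs substrates to degradation, was measured at 37.4 and 33.8 TPM.

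The regulators of CDK1 phosphorylation differed in level. PKMYT1 was measured at 106 and 92.9 TPM, CDC25B at 73.0 and 68.4 TPM and WEE1 at 55.0 and 63.3 TPM. CDC25C was lowest, at 21.4 and 18.3 TPM. The activating phosphatases CDC25B and CDC25C together stood at 0.586 and 0.555 times the inhibitory kinases WEE1 and PKMYT1. By reads alone the same ratio was 1.19 and 1.10, so which side was higher rested on the transcript lengths. WEE1 did not differ past the test under TMM (log2 ratio 0.06), and with the GC trend removed it was higher in replicate 1 (-0.36, adjusted p = 1.98e-11, exact binomial test).

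Of the mitotic kinases, PLK1, which acts from mitotic entry to cytokinesis, was measured at 277 and 244 TPM. AURKB, the kinase of the chromosomal passenger complex, was measured at 190 and 189 TPM, and AURKA, the kinase of the spindle poles, at 54.0 TPM in both libraries. PLK1 and AURKB were above AURKA in both libraries, at 5.13 and 4.51 times it for PLK1 and 3.51 and 3.49 times it for AURKB, although by reads alone AURKB stood at 1.62 and 1.58 times AURKA. BIRC5, survivin, the partner of AURKB in the passenger complex, was measured at 125 and 108 TPM. All 4 were higher in replicate 1 under TMM, with log2 ratios from -0.37 for PLK1 to -0.16 for AURKA. With the GC trend removed, PLK1, AURKA and BIRC5 kept that direction past the test, while AURKB was at 0.01.

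The spindle checkpoint genes delay anaphase until chromosomes are attached. Of these 5 genes, 3 were called higher in replicate 2 and 0 in replicate 1 under TMM (20.9% and 22.2% of all genes tested). With the GC trend removed the counts were 1 and 2 (14.7% and 13.8% of all genes tested). BUB3, which recruits the other BUB proteins to kinetochores, was measured at 160 and 179 TPM, and its kinase partner BUB1 at 64.7 and 69.1 TPM. BUB1B, which encodes the checkpoint protein BubR1, was measured at 103 and 123 TPM, and MAD2L1, which binds and blocks CDC20, at 59.7 and 77.5 TPM. TTK, the kinase MPS1 that starts checkpoint signalling, was measured at 23.9 and 44.7 TPM. TTK had the largest ratio of all members (log2 ratio 0.96, interval 0.83 to 1.09; adjusted p = 3.40e-49, exact binomial test). With the GC trend removed TTK was still higher in replicate 2 (0.38), but MAD2L1 changed from 0.28 to -0.35 and was the single member called in opposite directions on the 2 scales. BUB1B went from 0.16 to -0.05, and BUB1 from -0.03 to -0.31.

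At the step to anaphase, PTTG1, which encodes securin, the inhibitor of separase, was the second highest member at 387 and 373 TPM. Its activating counterpart CDC20, which turns on the anaphase-promoting complex (APC/C), was measured at 117 and 98.3 TPM. PTTG1 stood at 3.31 and 3.79 times CDC20 on the TPM scale, but by reads alone at 0.874 and 1.01 times. The weighted transcript length of PTTG1 was 474 and 480 bases, the shortest of the members, whereas its longest annotated transcript has 1070. Both genes were higher in replicate 1 on both scales, with log2 ratios of -0.15 for PTTG1 and -0.37 for CDC20 under TMM and -0.23 and -0.15 with the GC trend removed.

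FOXM1, the factor that activates many mitotic genes, was measured at 127 and 126 TPM. TOP2A, the topoisomerase that untangles sister chromatids, was measured at 155 and 266 TPM, and MKI67, the gene of the proliferation marker Ki-67, at 107 and 140 TPM. Both markers were higher in replicate 2, with log2 ratios of 0.69 for TOP2A (interval 0.64 to 0.73) and 0.27 for MKI67 (interval 0.25 to 0.30). Removal of the GC trend took TOP2A (GC content 38.7%) to 0.09 and left MKI67 (GC content 48.3%) at 0.30, both past the exact binomial test. With 22548 and 33644 reads MKI67 had the most reads of the members, and its interval was the narrowest.

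Between the 2 libraries, 10 of the 39 members tested were higher in replicate 2, against 20.9% of all genes tested. In replicate 1, 20 were higher, against 22.2% of all genes tested. All genes tested include genes with as few as 10 counts, where this test calls less often at the same ratio. Members and all genes were not matched for depth. By phase, 3 G1 members were higher in replicate 2 and 4 in replicate 1, of 11 tested. For the 6 S members tested the counts were 1 and 3, and for the 22 mitotic members 6 and 13. With the GC trend removed the counts were 4 and 2 for G1, 0 and 3 for S and 3 and 11 for mitotic members. The shares of all genes tested were then 14.7% and 13.8%. With the length trend removed as well, the G1 counts were 3 and 0, against 14.1% and 13.0% of all genes tested. Which way the few called G1 members leaned thus depended on the scale. The median log2 ratio of the members was -0.14, beside -0.04 for genes with at least 100 counts and 0.00 for all genes tested. On the TPM scale, which puts the median of genes with at least 100 counts 0.12 (log2) higher than TMM does, the median of the members was -0.01, and CDKN1B, CDKN1C, CDK2 and BUB1 had the opposite sign. None of the 39 members tested reached an absolute log2 ratio of 1 under TMM, though TTK stood at 1.01 when scaled by library totals. The exact test of edgeR, run with a biological coefficient of variation set to 0.1, called 4 members, CDK6, TTK, CDK1 and TOP2A. The coefficient that edgeR estimated from the 2 libraries themselves was larger, 0.201.

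**Figure D2:**
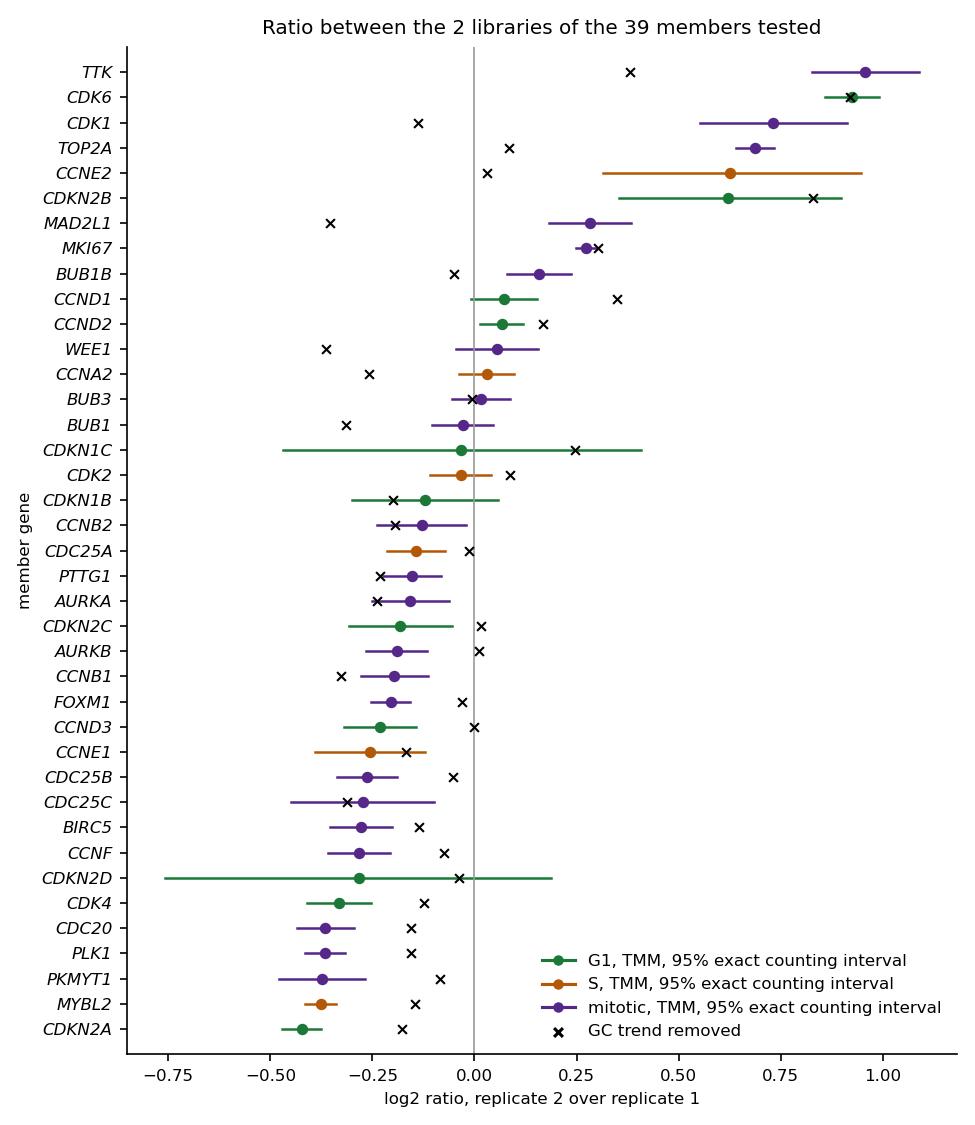
Log2 ratio of replicate 2 over replicate 1 for the 39 members tested, in order, as coloured circles by phase with 95% exact counting intervals (TMM), and as crosses with the GC trend removed. TTK (0.96) and CDK6 (0.92) are at the top and CDKN2A (-0.42) at the bottom, and the cross of CDK6 lies on its circle while that of CDK1 lies at -0.14.

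The ratios of the members followed GC content as those of other genes did. Across the 39 members, Pearson's r between log2 ratio and GC content was -0.60 and Spearman's rho -0.67, a description over genes that share the same 2 libraries. The 7 members with a GC content under 42% (CCNE2, CCNA2, CDK1, WEE1, MAD2L1, TTK and TOP2A) had a median log2 ratio of 0.63, beside 0.49 for all genes of that class, and 5 of them were higher in replicate 2 and 0 in replicate 1. The 12 members from 42% to 50% had a median of -0.13, beside 0.08 for all genes of that class. The 20 members at 50% or more had a median of -0.25, beside -0.20, with 2 higher in replicate 2 and 14 in replicate 1. Relative to genes of similar GC content, CDK6 (0.92), CDKN2B (0.83), TTK (0.38), CCND1 (0.35) and MKI67 (0.30) stood highest.

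**Figure D3:**
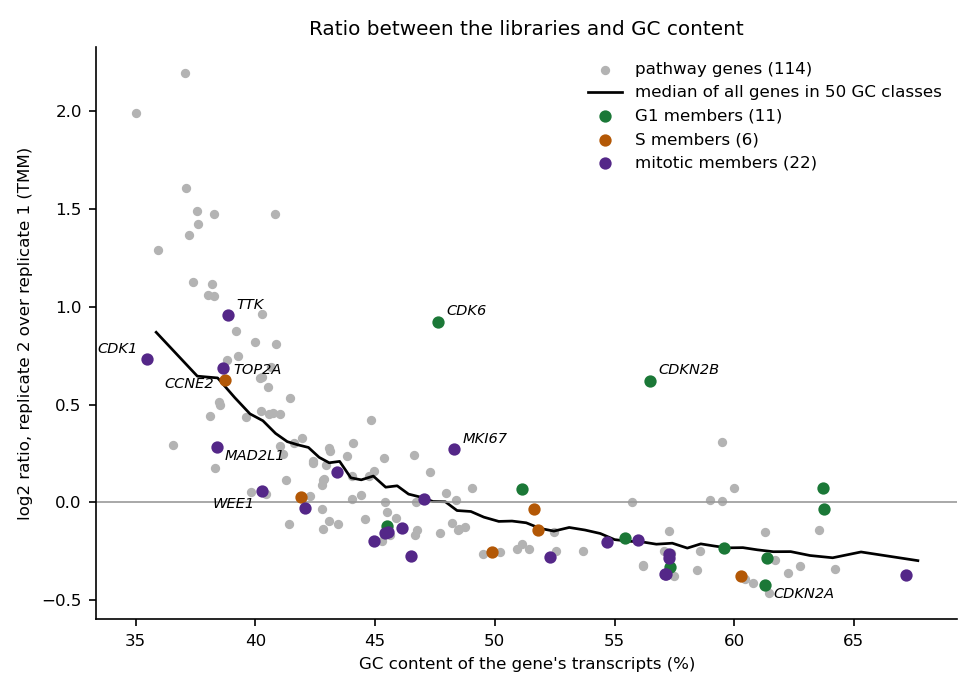
Log2 ratio of replicate 2 over replicate 1 (TMM) against the GC content of each gene's transcripts, for members by phase (coloured), for 114 genes of the same pathways (grey) and as the median of all genes with at least 100 counts in 50 GC classes (line). The line falls from low to high GC content, most members lie near it, and CDK6 and CDKN2B lie far above it.

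With the GC trend removed, 7 members were higher in replicate 2, against 14.7% of all genes tested, and 16 were higher in replicate 1, against 13.8%. CCND2, CDK6, CDKN2B, TTK, TOP2A and MKI67 were higher in replicate 2 on both scales. A set of 12 members was higher in replicate 1 on both: CDK4, CDKN2A, CCNE1, MYBL2, CCNB1, CCNB2, CDC25C, AURKA, PLK1, BIRC5, CDC20 and PTTG1. A further 11 members (CCND3, CDKN2C, CCNE2, CDC25A, CCNF, CDK1, PKMYT1, CDC25B, AURKB, BUB1B and FOXM1) were called under TMM alone and 4 (CCND1, CCNA2, WEE1 and BUB1) with the GC trend removed alone. After removal of a length trend as well, 8 members were higher in replicate 2, against 14.1% of all genes tested, and 14 in replicate 1, against 13.0%. CCND2, CDK4, CDKN2A, CCNE1 and PTTG1, called on both scales above, were then no longer past the test. What set the remaining differences was not tested.

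Transcript length set part of every level given in TPM. The abundance-weighted length was under 50% of the longest annotated transcript in 16 of the 39 members, with a median of 62.5% and a lowest value of 13.4% for BUB3 (1040 and 1021 bases against 7703). For 36 of the 39 members the weighted length in replicate 2 was within 10% of that in replicate 1. The exceptions were CDK6, CCNE2 (1172 and 1393 bases) and TTK (1585 and 1777 bases), all 3 longer in replicate 2. Scaled by the longest transcript, CDKN2A stayed first, MYBL2 moved from the fourth to the second place, MKI67 from 11 to 5, and BUB3 from 8 to 27. The medians by phase were then 76.4 for mitotic, 72.4 for S and 32.4 for G1 members, in the same order as with TPM.

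**Figure D4:**
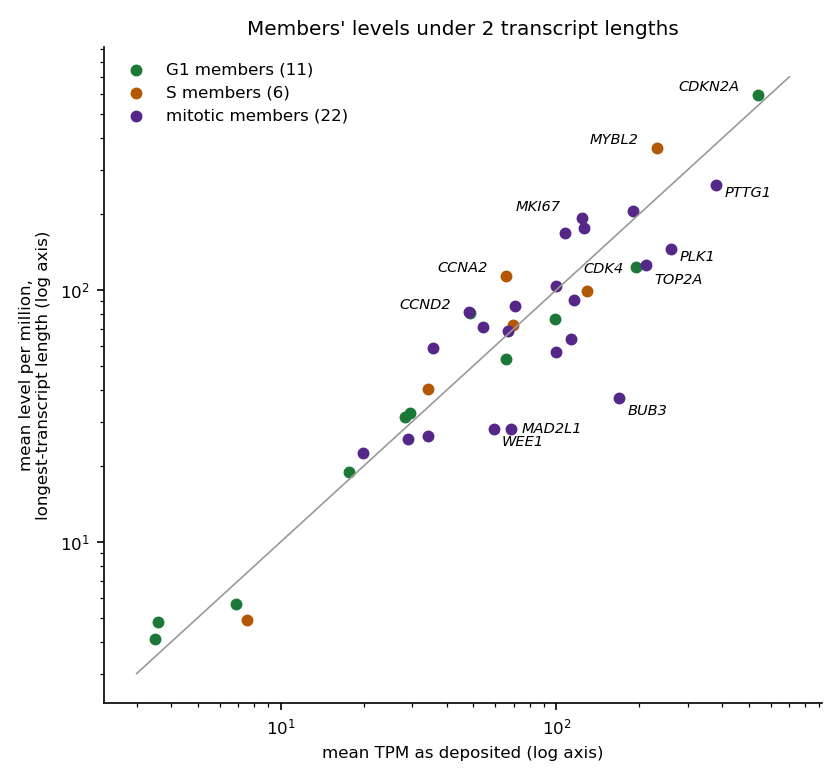
Mean level of the 39 members with at least 10 counts under the deposited TPM (x axis, log) and under counts divided by the longest annotated transcript (y axis, same total as TPM, log), coloured by phase, with the line of equality. MYBL2, MKI67, CCNA2 and CCND2 lie above the line and BUB3, MAD2L1, WEE1 and PLK1 below it, while CDKN2A is highest on both axes.

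Genes that work with the members were taken from 8 lists with 114 genes in all, and all 114 were detected. Under TMM, 49 of these were higher in replicate 2, against 20.9% of all genes tested, and 31 in replicate 1, against 22.2%, and their median log2 ratio was 0.10. After removal of the GC trend, 32 were higher in replicate 2, against 14.7% of all genes tested, and 30 in replicate 1, against 13.8%, with a median of -0.04. The same shares over all genes are the background of each list below, again not matched for depth. Their median GC content was 43.9%, lower than the 50.5% of the members. From each list the gene of highest mean TPM and the called gene of largest ratio are named. Among 24 kinetochore genes (median GC content 41.6%), 15 were higher in replicate 2 and 4 in replicate 1, and 9 and 2 with the GC trend removed. ZWINT, a kinetochore scaffold protein, was highest at 140 and 157 TPM, and CENPE, the kinetochore motor, had the largest ratio, at 10.4 and 47.3 TPM (log2 ratio 1.99, and 1.12 with the GC trend removed). Among 20 mitotic kinesins and spindle factors, 11 were higher in replicate 2 and 6 in replicate 1, and 9 and 5 with the GC trend removed. PRC1, which bundles midzone microtubules, was measured at 313 and 358 TPM, and ASPM, a spindle pole protein, at 8.53 and 42.2 TPM (log2 ratio 2.19, and 1.48 with the GC trend removed).

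Among 8 condensin subunits, 4 were higher in each direction, and 2 in each with the GC trend removed. SMC4 was highest, at 79.9 and 217 TPM, and its partner SMC2 had the largest ratio, at 15.7 and 44.5 TPM (log2 ratio 1.49, and 0.85 with the GC trend removed). Of 11 partners of the passenger complex and other checkpoint genes, 4 were higher in each direction. With the GC trend removed, 4 of them were higher in replicate 2 and 3 in replicate 1. INCENP, the scaffold of AURKB and BIRC5, was measured at 119 and 117 TPM, and SGO2, which protects centromeric cohesion, at 3.14 and 10.2 TPM (log2 ratio 1.61, and 0.90 with the GC trend removed). These genes of low GC content, CENPE, ASPM, SMC2 and SGO2 among them, had larger ratios than any member, and all 4 were still higher in replicate 2 after removal of the GC trend.

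Among 18 subunits, ubiquitin enzymes and regulators (FZR1 and FBXO5) of the APC/C, which is activated by CDC20, 4 were higher in replicate 2 and 8 in replicate 1. UBE2S, its chain-elongating enzyme, was measured at 747 and 619 TPM, above every member, and CDC27 at 149 and 214 TPM (log2 ratio 0.45, and 0.11 with the GC trend removed). Once the GC trend was removed, 1 gene of the list was higher in replicate 2 and 9 in replicate 1. Of 9 genes of the SCF ubiquitin ligase, which works in G1 and S phase, 2 were higher in replicate 2 and 1 in replicate 1, with the cofactor CKS1B at 183 and 188 TPM and FBXW7, the receptor for cyclin E, at 13.3 and 17.2 TPM (log2 ratio 0.26, and 0.06 and no longer past the test with the GC trend removed). After removal of the GC trend, 0 SCF genes were higher in replicate 2 and 5 in replicate 1. Of the 5 genes of the MuvB core, which binds CHR elements, 3 were higher in replicate 2 and 0 in replicate 1, with RBBP4 at 168 and 172 TPM and LIN54, the CHR-binding subunit, at 12.8 and 23.5 TPM (log2 ratio 0.69, and 0.32 with the GC trend removed). The list of other cyclins and CDKs holds 19 genes, among them the CDK7 partner MNAT1, which is neither. Of these 19, 6 were higher in replicate 2 and 4 in replicate 1, and 4 and 3 with the GC trend removed. CDK16 was measured at 404 and 418 TPM and CCNH, the cyclin of CDK7, at 46.1 and 87.0 TPM (log2 ratio 0.96, and 0.54 with the GC trend removed).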

How the data were processed

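Both libraries were made from poly(A)+ RNA and read at 50 bp, although the molecule is entered in the labels as genomic DNA. The submitters' processing notes name Trimmomatic 0.36, STAR 2.6.1c and RSEM 1.3.1, with hg19 and GRCh37.p13 as builds, while the study's methods name featureCounts. Of the strand setting, the sources used here give nothing. The authors deposited for each gene an expected count, in which multi-mapped reads are shared among genes. The TPM and FPKM values deposited by the authors are corrected for an abundance-weighted transcript length. A table of the whole series was not used.

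Members and pathway lists were chosen with earlier results of these data known. All 40 members were named, and from each pathway list the gene of highest mean TPM and the called gene of largest log2 ratio with at least 100 counts. Expected counts were rounded to whole numbers, scaled by TMM (edgeR 4.0.16, on genes with 10 or more reads in the 2 libraries together) and compared by exact binomial tests (SciPy 1.17.1) with Benjamini-Hochberg adjustment at 0.05. Log2 ratios used a pseudocount of 0.5. The binomial test was tried on simulated counts that held counting error only and no GC trend. That trial therefore says nothing about variation beyond counting, which the libraries here do have. Trends with GC content and length were estimated as the median log2 ratio in each of 50 equal classes of genes with 100 or more reads, on library totals, and interpolated between classes. GC content, positions and transcript lengths came from a GENCODE annotation of GRCh37, of another release than the authors' gene list, which matched 96.1% of identifiers. DESeq2 1.42.0 size factors, library totals, other minimum counts, an edgeR exact test, CPM and each library alone were alternatives. The length trend and the scaling by the longest transcript were chosen after seeing the data. Intervals are 95% exact and cover counting error only. Means and SDs are over the 2 libraries. The p-values set each gene's split of counts between these libraries against counting error alone, and do not measure the variation of replicates.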

Additional observations from a re-analysis of the deposited data

How the results depend on the processing

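The detection of 39 members, their median log2 ratio and the number of pathway genes called kept their direction, and the counts stayed within 1.5 times, under every alternative run for them, while the median moved from -0.14 to -0.07 with the GC trend removed and to -0.05 with the length trend removed as well. The number of members that differed between the libraries was 30, and it was 4 by the edgeR exact test with a coefficient of variation of 0.1. It was 0 where a member also had to reach 1 on the log2 scale under TMM in either direction. In CPM, the phase medians were 84.6 for G1, 119 for S and 114 for mitotic members, CDK4 took 39.8% of CDK4 and CDK6, CCND1 24.1% of the D-type cyclins, CCNB1 63.4% of the B-type cyclins, and the members 0.559% of the total. By the longest transcript, a scaling chosen after seeing the data, the S and mitotic medians were 72.4 and 76.4, CDK4 took 79.3%, CCND1 25.2%, CCNB1 56.0% and CCNE1 89.2% of its family, and the members took 0.384% of the total. By posterior mean TPM the members took 0.396%. With each library alone, the G1 median lay between 28.5 and 37.4 TPM. With TTTGAA as the single CHR spelling, 9 members had a CHR in place of 14. Removal of the GC trend turned the log2 ratio of CDKN2C to 0.015, CCNA2 to -0.26, CDK1 to -0.14, WEE1 to -0.36, AURKB to 0.011, BUB1B to -0.050 and MAD2L1 to -0.35. Removal of the length trend as well gave CCND3 0.061, CDKN2C 0.0071, CCNA2 -0.32, CDK2 0.14, CDK1 -0.099, WEE1 -0.34, PKMYT1 0.022, AURKB 0.11, BUB1B -0.012 and MAD2L1 -0.33, and the cause was not tested. For single members, library totals and DESeq2 size factors turned no direction of a called gene, and CCNB2 was no longer past the test under either. Under library totals CDKN2C and AURKA were lost as well and CCND1 was gained. No paired analysis was possible because 1 group leaves nothing to pair. Depth limits the values of CDKN2D, CDKN1C, CDKN2B and CCNE2, which had the fewest reads after CCNA1.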
